A study of Mus musculus with 12 samples.

Results

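The transcription factors of the osteoblast lineage were examined in the tibia shaft of mice with and without a dominant collagen type I mutation, and with and without sclerostin. The set held 9 genes, Runx2, Sp7, Dlx3, Dlx5, Dlx6, Msx2, Mef2c, Irx3 and Irx5, each matched by its symbol among the 47069 genes of the deposited count matrix, and each symbol was found. Of the 9, 8 passed the low-count filter in every comparison, and Msx2 passed it in none. No symbol was chosen by a measured value, but the set was put together with results of these data known.

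RNA was sequenced from 12 male mice aged 8 weeks, 4 in each of 3 groups on a mixed FVB/C57BL6 background. WT mice carried neither altered allele and came from a separate, parallel colony. Jrt;Sost-ko mice were Col1a1Jrt/+ and Sost-/-. Jrt;Sost-het mice are labelled Col1a1Jrt/+ only, and their single intact Sost allele is known from the study's methods. The Jrt allele, shared by both of these groups, changes the splice donor of exon 9 of Col1a1 and is a model of severe osteogenesis imperfecta, the brittle bone disease. No group was Jrt with 2 intact Sost alleles, and none was WT with Sost deleted. A comparison with WT therefore joins the Jrt allele, loss of 1 or both Sost alleles and the colony, which cannot be told apart. Col1a1, Sost and Dlx3 all lie on chromosome 11, so alleles linked to them travel with the genotype as well.

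Osteoblasts arise from mesenchymal progenitors under a hierarchy of transcription factors. Runx2 commits cells to the lineage, and Sp7 (osterix), which needs Runx2 for its expression, carries them on to matrix-producing osteoblasts. Dlx3, Dlx5, Dlx6 and Msx2 are homeodomain factors, of which the Dlx genes promote and Msx2 modulates osteoblast differentiation. Mef2c acts in osteocytes, where it drives Sost through a distant bone enhancer, and it is also a factor of skeletal muscle, endothelium and lymphoid cells. Irx3 and Irx5 are Iroquois homeodomain factors needed for skeletal patterning and for bone formation. Sclerostin, the product of Sost, is secreted by osteocytes and blocks Wnt signalling at its co-receptors, and Wnt signalling acts on osteoblasts in part through Runx2.

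Libraries held 24366061 to 44418863 reads on genes. The targeted gene matched the labels: Sost was at 0.328 to 1.29 CPM (read counts scaled to a common library total) in the 4 Jrt;Sost-ko mice, 27.2 to 70.3 CPM in Jrt;Sost-het and 28.6 to 72.4 CPM in WT. Bone was present in every library, with each of the 12 osteoblast markers above 0 in every mouse. Tissue around the bone differed between libraries. The 16 skeletal muscle markers summed to 2544 to 28760 CPM in Jrt;Sost-het, 74.6 to 12290 in Jrt;Sost-ko and 268 to 30270 in WT. The 11 of 20 epidermis markers that passed the filter summed to 197 CPM in WT mouse 3 and 563 CPM in WT mouse 4, against 66.8 to 78.9 in the other 10 mice, with Krt14 at 11.1 and 84.3 CPM in those 2 WT mice and at 0 to 0.150 CPM elsewhere. The 12 chondrocyte markers were highest in Jrt;Sost-het mouse 1 (5029 CPM) and WT mouse 4 (4169 CPM), and lay between 716 and 2176 CPM in the others. The most abundant genes of these lists were Col1a2 (12520 to 36630 CPM) and Col1a1 (8953 to 29940) for osteoblasts, Myh4 (1.48 to 6717) and Acta1 (1.90 to 3798) for muscle, Ly6d (36.7 to 55.0) and Krt10 (1.34 to 208) for epidermis, and Col11a1 (616 to 1570) and Col2a1 (39.6 to 2090) for cartilage. The factors' differences from WT are therefore given with and without WT mice 3 and 4, while values of other genes against WT include all 4 WT mice.

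Positions are on GRCm38. Runx2 lies on chromosome 17 from 44495987 to 44814797 (minus strand), Sp7 on chromosome 15 from 102356606 to 102367182 (minus), and Dlx3 on chromosome 11 from 95120119 to 95125296 (plus). Dlx5 (chromosome 6, 6877805 to 6882085, minus) and Dlx6 (6863334 to 6868568, plus) form a pair separated by 9237 bases. Msx2 (53466884 to 53473074, minus) and Mef2c (83504034 to 83667080, plus) share chromosome 13 at a distance of 30030960 bases. Irx3 (91798525 to 91802067, minus) and Irx5 (92357625 to 92376286, plus) are 555558 bases apart on chromosome 8.

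RefSeq promoter windows, 250 bases before to 50 after a start site on GRCm38.p6, were at hand for 4 of the 9 genes. The 3 printed belong to the gene at the head of the lineage, to an Iroquois gene that moved closely with Irx5, and to Mef2c. Of the 9 genes, Mef2c had the highest correlation with muscle markers over the 12 mice. Capitals mark matches on either strand to a RUNX motif (TGTGGT or TGCGGT), a GC box (GGGCGG), the homeodomain core (TAATTA) or a TCF/LEF motif (CTTTGA).
Runx2, chr17:44814578-44814877, minus strand: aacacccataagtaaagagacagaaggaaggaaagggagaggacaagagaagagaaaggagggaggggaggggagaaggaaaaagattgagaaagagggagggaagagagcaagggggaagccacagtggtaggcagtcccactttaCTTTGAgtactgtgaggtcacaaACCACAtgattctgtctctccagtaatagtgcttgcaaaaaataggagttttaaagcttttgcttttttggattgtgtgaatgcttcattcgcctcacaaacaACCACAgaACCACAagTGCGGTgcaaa
Irx3, chr8:91801605-91801904, minus strand: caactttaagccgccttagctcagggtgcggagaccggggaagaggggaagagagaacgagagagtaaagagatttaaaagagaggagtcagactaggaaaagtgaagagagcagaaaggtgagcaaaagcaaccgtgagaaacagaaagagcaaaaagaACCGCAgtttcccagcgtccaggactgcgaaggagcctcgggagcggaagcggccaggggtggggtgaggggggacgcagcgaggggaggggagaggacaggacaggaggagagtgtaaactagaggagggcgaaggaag
Mef2c, chr13:83523406-83523705, plus strand, 1 of 3 windows of this gene: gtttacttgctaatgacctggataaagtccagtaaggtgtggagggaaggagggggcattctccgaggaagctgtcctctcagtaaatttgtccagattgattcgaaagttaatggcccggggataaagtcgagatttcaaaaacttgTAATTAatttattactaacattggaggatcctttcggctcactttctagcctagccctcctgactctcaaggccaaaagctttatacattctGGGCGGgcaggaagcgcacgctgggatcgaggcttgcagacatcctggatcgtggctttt

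The Runx2 window held 4 matches to the RUNX motif and 1 to the TCF/LEF motif. The Irx3 window held 1 RUNX match. The printed Mef2c window held 1 homeodomain core and 1 GC box. Of the Mef2c windows not printed, 1 held a TCF/LEF match and the other held no match. Over all 32851 promoter windows, 22.4% held a RUNX match, 35.7% a GC box, 5.29% a homeodomain core and 16.0% a TCF/LEF match. The MEF2 motif, searched by name on both strands, was in 1.86% of all windows and in none of the 6 windows of these genes. The matches are letters in a window and were not tested as binding sites.

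In order to compare levels between genes, CPM were divided by the length of each gene's merged exons (CPM per kb). Sp7 was the most abundant of the 9 factors at 25.7 ± 6.85 CPM per kb (SD, n = 12). Mef2c followed at 9.37 ± 2.20, Runx2 at 7.58 ± 0.912, Dlx5 at 7.10 ± 1.29 and Dlx3 at 6.30 ± 1.46 CPM per kb. Irx5 (4.35 ± 1.24), Irx3 (4.27 ± 1.05) and Dlx6 (3.53 ± 0.666 CPM per kb) were lower, and Msx2 was at 0.0936 ± 0.0433 CPM per kb.

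Sp7 exceeded Mef2c in 12 of 12 mice, Dlx3 exceeded Irx5 in 12 of 12, and Dlx6 exceeded Msx2 in 12 of 12. The other neighbours changed places between mice. Mef2c was above Runx2 in 9 mice, Runx2 above Dlx5 in 8, Dlx5 above Dlx3 in 9, Irx5 above Irx3 in 5 and Irx3 above Dlx6 in 9 of 12. Whether these pairs differ in level was not tested. The order of Irx5 and Irx3 was not the same in each group. Irx5 averaged 5.24 and Irx3 4.71 CPM per kb in Jrt;Sost-ko. In WT the means were 3.95 and 4.24, and in Jrt;Sost-het 3.86 and 3.87 CPM per kb, in the same order.

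**Figure D1:**
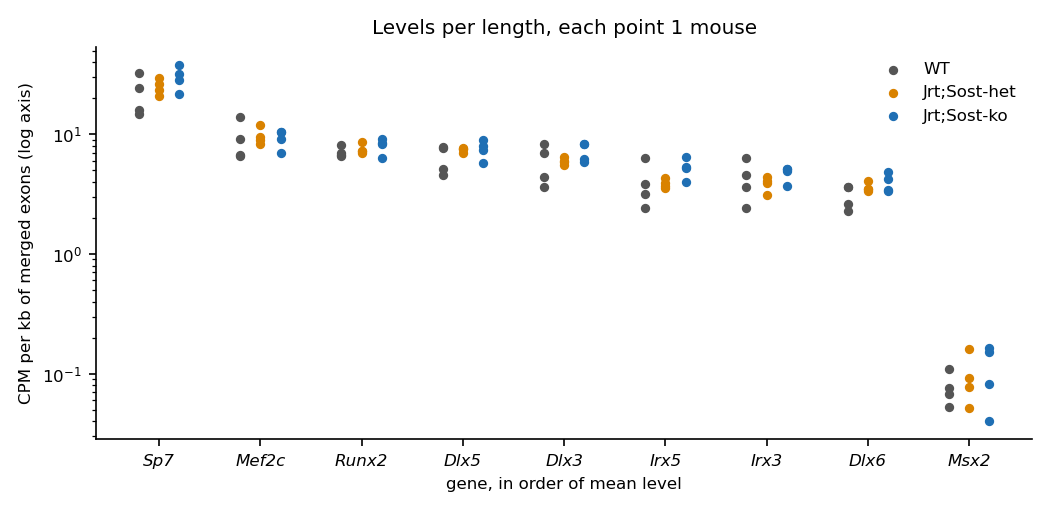
Level per length of each factor, as CPM per kb of merged exons on a log axis, with 1 point per mouse and the groups side by side. Sp7 stands at 14.8 to 38.1 CPM per kb, above every other factor, and Msx2 at 0.0400 to 0.163, below every other factor.

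The genes also differed in how much they varied between mice. Runx2 was the steadiest, with a coefficient of variation of 12.03% over the 12 mice and a highest level 1.44 times the lowest. Irx5 varied by 28.5% and 2.67-fold, Sp7 by 26.7% and 2.56-fold, and Irx3 by 24.5% and 2.61-fold. Mef2c (23.5%), Dlx3 (23.2%), Dlx6 (18.9%) and Dlx5 (18.1%) lay between. Over the 11863 tested genes with a mean of at least 5 CPM the median coefficient of variation was 9.94%, and the upper quartile 15.2%. Of the factors above 5 CPM, all but Runx2 varied more than this quartile.

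In Runx2, the master factor of the lineage, WT mice 1 to 4 measured 59.9, 62.0, 58.0 and 71.6 CPM. Jrt;Sost-het mice measured 76.0, 63.7, 64.6 and 61.9 CPM, and Jrt;Sost-ko mice 74.0, 81.2, 74.1 and 56.4 CPM. The 3 groups overlapped, and the lowest and the highest of the 12 mice were both Jrt;Sost-ko. Group means were 62.9 ± 6.07 CPM for WT, 66.6 ± 6.42 for Jrt;Sost-het and 71.4 ± 10.5 for Jrt;Sost-ko (SD, n = 4 each). The log2 fold change between the Jrt groups, Jrt;Sost-ko over Jrt;Sost-het, was 0.11 (SE 0.116, edgeR adjusted p = 0.906), with a 95% interval of 0.897- to 1.29-fold.

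Sp7, the zinc finger factor downstream of Runx2, measured 54.1, 50.4, 82.4 and 111 CPM in the WT mice. The values were 101, 88.9, 71.3 and 80.4 CPM in Jrt;Sost-het and 96.4, 129, 108 and 74.0 CPM in Jrt;Sost-ko. WT mice 1 and 2 were below every Jrt mouse, whereas WT mice 3 and 4 lay within the Jrt range. The means were 74.4 ± 28.1, 85.4 ± 12.7 and 102 ± 23.0 CPM, so that the WT spread exceeded each difference of group means. The Jrt groups gave a log2 fold change of 0.26 (SE 0.169, edgeR adjusted p = 0.901).

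Msx2, a homeodomain factor of early osteogenic cells, was counted 4 to 20 times per library, or 0.131 to 0.533 CPM, against a floor of 3 counts. Groups overlapped, and no difference was detectable at this depth. The share of its reads is too small for a fold change.

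Among the Dlx factors, Dlx3 was at 11.4, 9.48, 18.03 and 21.5 CPM in WT, at 14.3, 16.8, 15.5 and 15.4 in Jrt;Sost-het and at 15.3, 21.4, 21.4 and 16.3 in Jrt;Sost-ko. Again WT mice 1 and 2 were lowest of the 12, and WT mouse 4 was highest. Dlx5 was at 11.7, 10.4, 17.5 and 17.6 CPM in WT, 15.9, 17.1, 17.3 and 16.9 in Jrt;Sost-het, and 16.9, 20.4, 18.1 and 12.9 in Jrt;Sost-ko. The 4 Jrt;Sost-het mice were close together at 16.8 ± 0.654 CPM (SD), and the other groups reached below and above them.

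Dlx6, the neighbour of Dlx5, was at 5.47, 6.20, 8.62 and 8.63 CPM in WT, 8.04, 9.64, 8.23 and 8.26 in Jrt;Sost-het, and 7.94, 9.98, 11.5 and 8.16 in Jrt;Sost-ko. WT mice 1 and 2 were the lowest here too. Of the Dlx genes between the Jrt groups, Dlx3 had a log2 fold change of 0.27 (SE 0.128, unadjusted p = 0.0671, edgeR adjusted p = 0.901), Dlx6 of 0.14 (SE 0.141) and Dlx5 of 0.03 (SE 0.132). Dlx5 exceeded Dlx6 in CPM by 1.58- to 2.13-fold in the 12 mice, with no group apart from the others.

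Mef2c, which binds the Sost enhancer in osteocytes, was at 106, 104, 145 and 221 CPM in WT. It was at 149, 129, 141 and 189 CPM in Jrt;Sost-het and at 165, 143, 165 and 109 CPM in Jrt;Sost-ko. The lowest were WT mice 1 and 2 and Jrt;Sost-ko mouse 4, and the highest was WT mouse 4. The log2 fold change between the Jrt groups was -0.06 (SE 0.158, edgeR adjusted p = 0.958), and the interval ran from 0.750- to 1.23-fold.

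Irx3 was at 9.93, 6.75, 12.5 and 17.6 CPM in WT, at 12.2, 11.2, 10.7 and 8.59 in Jrt;Sost-het, and at 13.6, 14.2, 14.1 and 10.2 in Jrt;Sost-ko. In Jrt;Sost-ko, 3 of 4 mice were above every Jrt;Sost-het mouse and the fourth, mouse 4, lay within them. The log2 fold change was 0.29 (SE 0.147, unadjusted p = 0.0820, edgeR adjusted p = 0.901), and the exact two-sided permutation p was 0.114.

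Irx5 had the largest difference of the 8 tested factors between the Jrt groups. It measured 16.2, 20.2, 16.7 and 12.5 CPM in Jrt;Sost-ko against 13.5, 12.2, 11.1 and 11.5 CPM in Jrt;Sost-het. Again 3 of 4 Jrt;Sost-ko mice were above all Jrt;Sost-het mice, and mouse 4 lay within their range. The means were 16.4 ± 3.17 and 12.1 ± 1.07 CPM, a 1.36-fold difference with a 95% interval of 1.08 to 1.71. Its unadjusted p of 0.0137 ranked 208 among 16739 genes, and it did not pass the correction (edgeR adjusted p = 0.901). The exact two-sided permutation p was 0.0571, where 0.0286 is the smallest that 4 against 4 allows. WT mice measured 9.95, 7.57, 11.99 and 19.8 CPM, and so spanned nearly the whole range of the other groups.

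**Figure D2:**
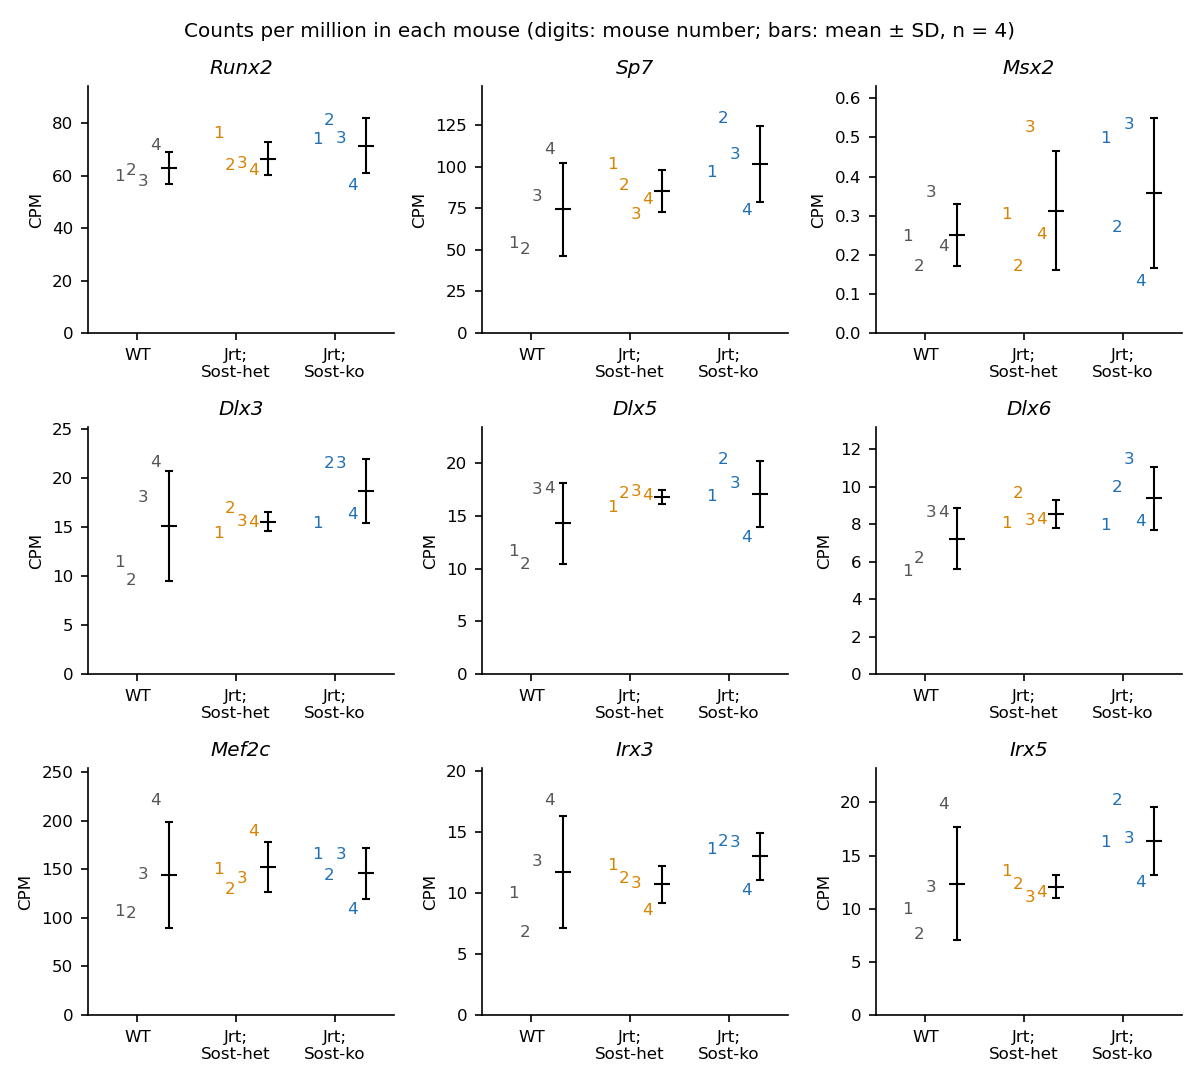
CPM of the 9 factors in each mouse, with digits for the mouse number within its group and bars for the mean ± SD (n = 4). For most factors WT mice 1 and 2 are low and WT mouse 4 is high, so the WT bars are wide, as for Sp7 (50.4 to 111 CPM).

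Between the Jrt groups (log2 fold changes are given as Jrt;Sost-ko over Jrt;Sost-het), the comparison of bone with and without sclerostin on the Jrt background, 0 of 8 tested factors had an adjusted p under 0.05, where 0.00597% of all tested genes did, namely Sost alone (log2 fold change -5.87, SE 0.485, edgeR adjusted p = 0.0130). DESeq2 called 15 genes, 0 of them factors, and with Jrt;Sost-ko mouse 1, 3 or 4 left out, 0 genes passed with edgeR. At an unadjusted p under 0.05, Irx5 was the only factor of 8, beside 5.02% of all genes. CPM overlapped between the groups for each factor, and failed to overlap for 3.05% of all genes. The log2 fold change was positive for 7 of 8 factors with a median of 0.20, while over all genes 50.4% were positive and the median was 0.00. Since the factors move together from mouse to mouse, as described further on, this count does not stand on 8 separate observations.

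Between Jrt;Sost-het and WT, 0 of 8 factors and 0% of genes passed an adjusted p of 0.05 with edgeR, and DESeq2 called 0 genes. At an unadjusted p under 0.05 the counts were 0 of 8 factors and 2.14% of genes, and for CPM that did not overlap, 0 of 8 and 1.5%. The log2 fold changes were 0.08 for Runx2, 0.20 for Sp7, 0.04 for Dlx3, 0.23 for Dlx5, 0.24 for Dlx6, 0.07 for Mef2c, -0.13 for Irx3 and -0.03 for Irx5. Their 95% intervals each included 0, and the widest, that of Irx3, reached from 0.594- to 1.40-fold. The median over the factors was 0.08, beside 0.00 over all genes.

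Between Jrt;Sost-ko and WT, 0 of 8 factors had an adjusted p under 0.05, beside 0.00583% of genes, which was again Sost (log2 fold change -6.29, edgeR adjusted p = 0.00895), and 0 genes passed with Jrt;Sost-ko mouse 1, 3 or 4 or WT mouse 1 or 3 left out. DESeq2 called 14 genes, 0 of them factors. Unadjusted, 0 of 8 factors and 3.89% of genes were under 0.05, and groups did not overlap for 0 of 8 factors and 2.35% of genes. The log2 fold changes were 0.45 for Sp7 (SE 0.274), 0.41 for Irx5 (SE 0.290), 0.38 for Dlx6 (SE 0.197), 0.30 for Dlx3, 0.26 for Dlx5, 0.19 for Runx2, 0.15 for Irx3 and 0.02 for Mef2c. Positive values were seen in 8 of 8, beside 49.1% of all genes, with a median of 0.28 beside 0.00 over all genes. The 3 comparisons share their groups, so these medians are not separate results.

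**Figure D3:**
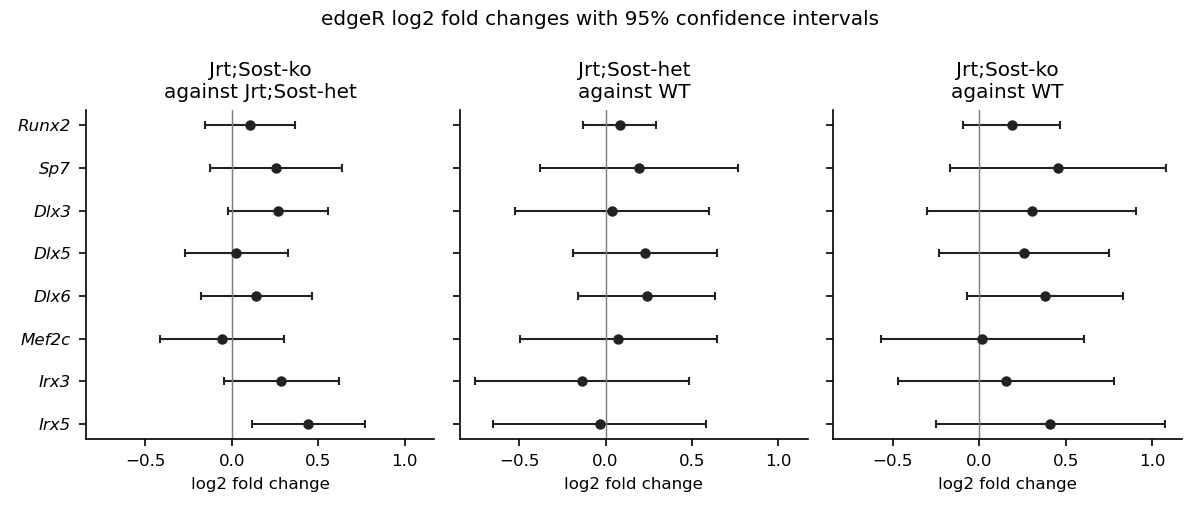
Log2 fold changes of the 8 tested factors from edgeR in the 3 comparisons, with 95% confidence intervals as bars and a line at 0. The interval of Irx5 between the Jrt groups (0.12 to 0.77) is the only one of 24 that leaves out 0, before any correction for the number of genes tested.

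The comparisons with WT rested on which WT mice were used. Jrt mice were above both WT mouse 1 and WT mouse 2 in 8 of 8 cases for Sp7, Dlx3, Dlx5, Dlx6, Mef2c and Irx5, in 7 of 8 for Irx3 and in 6 of 8 for Runx2. The share of all tested genes with this pattern was not counted, so these counts are descriptions only. Without WT mice 3 and 4, the 2 libraries with epidermis markers, the log2 fold changes of Jrt;Sost-het against WT became 0.72 for Sp7, 0.62 for Dlx5, 0.58 for Dlx3, 0.56 for Dlx6, 0.54 for Mef2c, 0.47 for Irx5, 0.37 for Irx3 and 0.14 for Runx2. None reached the threshold, the smallest edgeR adjusted p being 0.114 with 4 against 2 mice. For Jrt;Sost-ko against WT the same step gave 0.96 for Sp7, 0.90 for Irx5, 0.83 for Dlx3, 0.69 for Dlx6, 0.64 for Irx3, 0.63 for Dlx5, 0.47 for Mef2c and 0.23 for Runx2, with a smallest edgeR adjusted p of 0.304. Without WT mice 3 and 4, the mean log2 CPM of the osteoblast markers was also higher than in WT. The difference was 0.71 for Jrt;Sost-het and 0.92 for Jrt;Sost-ko. A median over all genes was not computed for this step.

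WT mice 1 and 2 differed from WT mice 3 and 4 in other markers too. The osteoblast markers summed to 35660 and 27560 CPM in WT mice 1 and 2, and to 46290 and 69460 CPM in WT mice 3 and 4. The 12 neutrophil markers (27770 and 32590 against 25240 and 18290 CPM) and the 11 erythroid markers (31400 and 28350 against 21260 and 17560 CPM) went the opposite way. Muscle markers were at 2652 and 268 against 12620 and 30270 CPM. Of the 11 epidermis markers, 11 had a negative log2 fold change in Jrt;Sost-het against WT (median -2.56) and 10 in Jrt;Sost-ko against WT (median -2.26), 0 of them with an edgeR adjusted p under 0.05. The part of these tissues in the differences between WT mice was not tested.

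The 8 factors varied together from mouse to mouse. Over the 12 mice, Pearson's r of log2 CPM ranged from 0.451 (Runx2 with Dlx3) to 0.937 (Sp7 with Irx5) in the 28 pairs, with a median of 0.735, and it exceeded 0.5 in 26 pairs. As deviations from the group means the median was 0.760. This value pools the 3 groups and does not show the relation in each of them. In Jrt;Sost-het, mouse 1 was highest for Sp7 (101 CPM) and lowest for Dlx5 (15.9 CPM). Mouse 3 of that group was lowest for Sp7 (71.3 CPM) and highest for Dlx5 (17.3 CPM). The closest pairs after Sp7 and Irx5 were Irx3 with Irx5 (0.917) and Dlx3 with Dlx6 (0.876). Dlx5 with Dlx6 gave 0.831, and Runx2 with Sp7 0.767. The points share the library and its scaling, so the values are descriptions.

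The factors also followed the osteoblast markers, a list of matrix genes such as Col1a1, Col1a2, Bglap, Ibsp and Alpl, many of which are known to be regulated by Runx2 or Sp7. With the mean log2 CPM of the 12 markers over the 12 mice, Sp7 had an r of 0.981 (Spearman's rho 0.993), and 0.959 with the 2 mice of the most extreme marker level left out. Within WT it was 0.993, within Jrt;Sost-het 0.958 and within Jrt;Sost-ko 0.947, each over 4 mice. The WT value was not particular to this list. Within WT, r of Sp7 was 0.991 with epidermis, 0.941 with endothelial, 0.912 with muscle and -0.966 with erythroid markers. Over the 12 mice these were 0.26, 0.59, 0.41 and -0.41, in the same order. Irx5 had an r of 0.937 (rho 0.944, 0.905 without the 2 farthest mice) and Irx3 of 0.880 (rho 0.895, 0.827). In bulk tissue, fewer osteoblasts and less RNA per osteoblast cannot be told apart.

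The relation of the Dlx genes with the markers was weaker without WT mice 1 and 2, the farthest from the median. Without them, r went from 0.889 to 0.651 for Dlx3, from 0.865 to 0.538 for Dlx5 and from 0.832 to 0.570 for Dlx6. Within groups of 4 mice, r of Dlx3 was 0.983 in WT, 0.784 among Jrt;Sost-ko and -0.333 among Jrt;Sost-het mice. The values of Dlx5 were 0.934, 0.966 and -0.817, and those of Dlx6 were 0.850, 0.779 and 0.116, in the same order. Runx2 behaved otherwise, with an r of 0.733 over all mice and 0.878 without the 2 farthest. WT mice 1 and 2 had few osteoblast markers but Runx2 at 59.9 and 62.0 CPM, close to WT mouse 3 at 58.0 CPM.

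**Figure D4:**
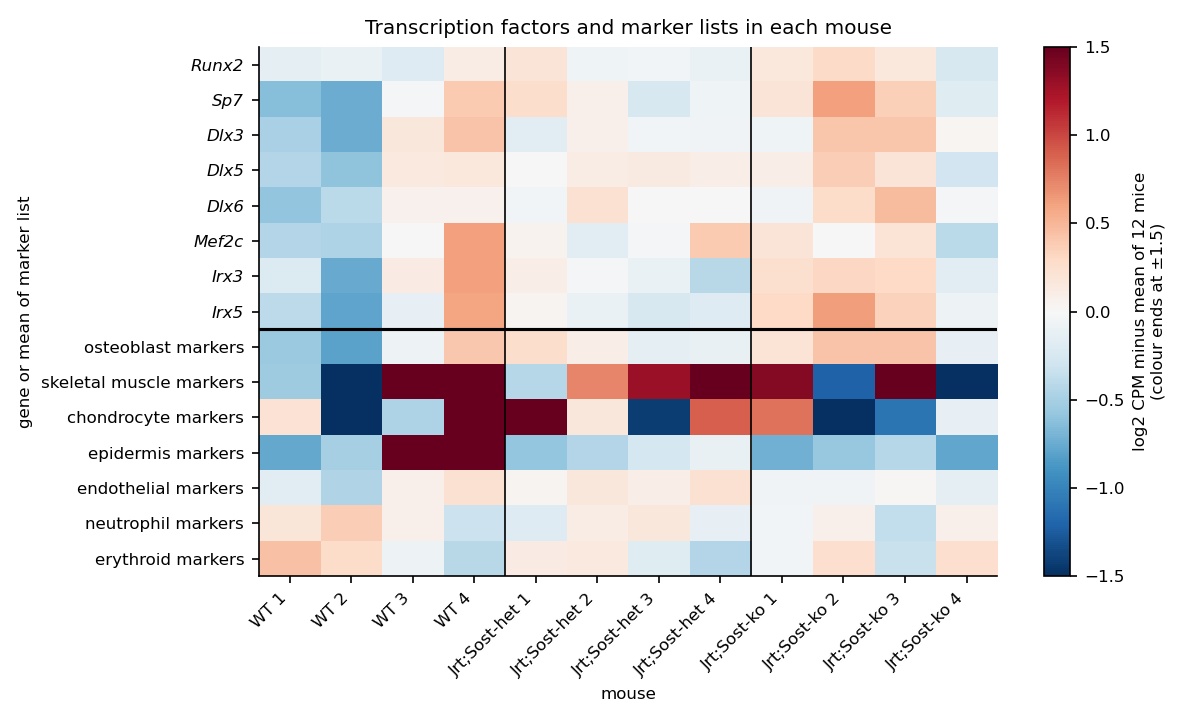
Log2 CPM of the 8 tested factors (upper rows) and mean log2 CPM of 7 marker lists (lower rows) in each mouse, as the difference from the mean of the 12 mice, in colour that ends at 1.5 in either direction. Most factor rows share the course of the osteoblast row, low in WT mice 1 and 2 and high in WT mouse 4 and Jrt;Sost-ko mice 2 and 3.

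To set this common course aside, each factor was also expressed relative to the osteoblast markers, as its log2 CPM minus the mean log2 CPM of the markers, a measure chosen after the correlations were seen. Sp7 then varied by an SD of 0.0800 over the 12 mice, compared with 0.408 for its log2 CPM. The relative level of Sp7 averaged -2.86 ± 0.0640 among WT mice, -2.88 ± 0.0641 among Jrt;Sost-het mice and -2.86 ± 0.121 among Jrt;Sost-ko mice (SD, n = 4), and the exact permutation p of the 3 comparisons ranged from 0.600 to 0.857. The SD of Irx5 was 0.143 in place of 0.411, and that of Irx3 0.187 in place of 0.367. For Runx2, by contrast, the relative level varied more (SD 0.288) than log2 CPM (0.172).

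Relative to the markers, the groups did not overlap in 3 of the 27 tests made for 9 factors and 3 comparisons. Irx5 was lower in Jrt;Sost-het than in WT by 0.23 (means -5.69 and -5.47, exact two-sided permutation p = 0.0286, the smallest possible), where 0.68% of all genes showed no overlap. In Jrt;Sost-ko against WT, Irx3 was lower by 0.27 (means -5.80 and -5.53) and Mef2c by 0.43 (means -2.33 and -1.90), each with an exact two-sided permutation p of 0.0286, where 6.63% of all genes showed no overlap. The marker mean that was subtracted was itself 0.49 higher in Jrt;Sost-ko than in WT (exact permutation p = 0.2) and 0.28 higher in Jrt;Sost-het (exact permutation p = 0.371), and the log2 fold changes of Mef2c (0.02) and Irx3 (0.15) against WT were not negative. Against WT mice 1 and 2 alone, an alternative chosen after the data were seen and given with no test, the difference of Irx5 for Jrt;Sost-het was -0.24, and those of Irx3 and Mef2c for Jrt;Sost-ko were -0.26 and -0.47, while Runx2 was at -0.58 and -0.70 for the 2 Jrt groups. No factor was without overlap between the Jrt groups, beside 2.84% of genes. There Irx5 was higher by 0.21 relative to the markers, with an exact permutation p of 0.0571, beside 0.44 as its log2 fold change. Osteoblast markers as a list differed by 0.21 between the Jrt groups (exact permutation p = 0.286).

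**Figure D5:**
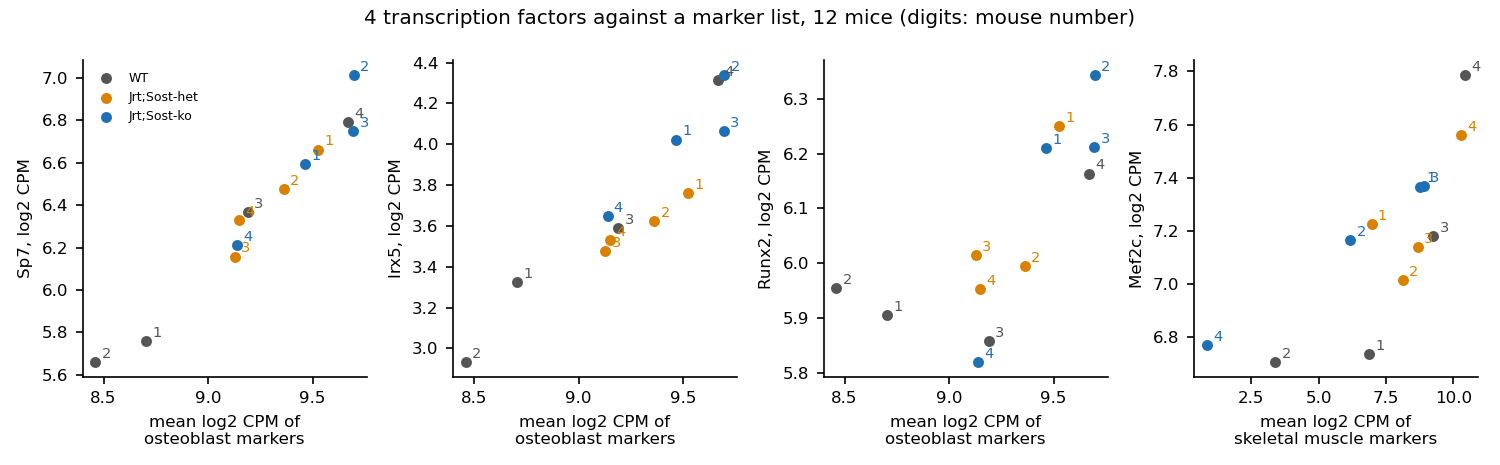
Log2 CPM of Sp7, Irx5 and Runx2 against the mean log2 CPM of 12 osteoblast markers, and of Mef2c against that of 16 skeletal muscle markers, with 1 numbered point per mouse coloured by group. Sp7 lies along a line (r = 0.981), Runx2 scatters more (r = 0.733), and Mef2c is lowest in mice with few muscle transcripts (r = 0.789).

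Mef2c also followed the muscle markers. Its r with the muscle markers was 0.789 over 12 mice (rho 0.839, and 0.743 without the 2 farthest mice), and with the osteoblast markers 0.703, or 0.423 without the 2 farthest mice. Its r was -0.875 with the erythroid markers (rho -0.860), -0.813 with the neutrophil markers (rho -0.916) and 0.765 with the endothelial markers (rho 0.664). Such relations were not particular to Mef2c. Dlx5 had an r of 0.651 with the muscle and 0.774 with the endothelial markers. Within WT, r with the muscle markers was 0.850 for Mef2c. It was higher for Irx3 (0.980), Dlx3 (0.962), Dlx5 (0.944), Irx5 (0.920) and Sp7 (0.912), and lower for Dlx6 (0.756) and Runx2 (0.379). The Jrt groups, each of 4 mice, did not share this order. Among Jrt;Sost-het mice r was 0.682 for Mef2c, 0.625 for Dlx5 and 0.305 for Dlx3. There it was negative for Irx3 (-0.985), Runx2 (-0.845), Irx5 (-0.786), Sp7 (-0.677) and Dlx6 (-0.054). Among Jrt;Sost-ko mice it was 0.9999 for Mef2c, and from 0.295 (Dlx3) to 0.912 (Irx3) for the other tested factors. Jrt;Sost-ko mouse 4 and WT mouse 2, the libraries with the fewest muscle transcripts (74.6 and 268 CPM), were among the 3 lowest for Mef2c, and the libraries with the most, WT mouse 4 and Jrt;Sost-het mouse 4, were the 2 highest. Between the Jrt groups 16 of 16 muscle markers had a negative log2 fold change, with a median of -0.96, and 0 of them had an edgeR adjusted p under 0.05. Whether RNA of these other tissues contributes to the Mef2c values was not tested. In the epidermis, where Dlx3 also acts, markers had an r of 0.435 with Dlx3 over 12 mice, and of 0.162 without WT mice 3 and 4. As deviations from the group means, this r was 0.887. By group, each of 4 mice, it was 0.960 within WT, 0.890 among Jrt;Sost-ko and 0.255 among Jrt;Sost-het mice. Whether epidermis RNA contributes to the Dlx3 values was not tested.

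For the genes most like each factor, the correlation of log2 CPM over the 12 mice was taken against 14677 genes of at least 1 CPM. Sp7 was most like Creb3l1 (r = 0.983), the transcription factor OASIS of the osteoblast secretory pathway, in which mutations cause a recessive form of osteogenesis imperfecta, and then Cdkn1a and Timp1 (0.978 each). Irx5 was most like Ssr3 (0.985), a part of the translocon-associated complex of the endoplasmic reticulum, then Ptprz1 (0.969) and Hdlbp (0.967). Dlx3 was most like Srprb (0.965), a subunit of the signal recognition particle receptor, then St6galnac6 and Ryk, and Mef2c most like Tmem117 (0.982), then Srpr (0.973), another subunit of that receptor, and Msrb3. Dlx5 was most like Map1b (0.979) and Kank2, and Dlx6 most like Rgs3 (0.956), Smad6 and Insc. Irx3 was most like Pomt2 (0.946) and Znrf3, and Runx2 most like Fam8a1 (0.943), Slc38a2 and Sec16a. The sparsely counted Msx2 reached 0.848 with Stac2, followed by Fam69c and Rnd2.

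Ratios between paired factors gave 12 further tests over 4 ratios and 3 comparisons. The ratio of Irx5 to Irx3 in CPM was 1.19, 1.42, 1.18 and 1.23 in Jrt;Sost-ko and 1.002, 1.12, 0.955 and 1.13 in WT. These groups did not overlap (exact two-sided permutation p = 0.0286, the smallest possible), but Jrt;Sost-het, at 1.10, 1.09, 1.03 and 1.34, overlapped both. No other of the 12 tests had an exact permutation p under 0.05, the next smallest being 0.0857. The share of other gene pairs whose ratio did not overlap was not counted. The ratio of Sp7 to Runx2 was 0.903 and 0.814 in WT mice 1 and 2, the only ones of 12 under 1, and 1.42 and 1.55 in WT mice 3 and 4. In the other mice it ran from 1.10 to 1.59, and its exact permutation p was 0.229 or more in the 3 comparisons.

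Of 14 paralogs of the factors, 8 passed the filter, and 0 had an adjusted p under 0.05 in any comparison. Irx6, which belongs to the same gene cluster as Irx3 and Irx5, was at 2.74, 3.05, 3.89 and 1.80 CPM in Jrt;Sost-ko against 1.63, 1.76, 1.92 and 1.68 CPM in Jrt;Sost-het. As for Irx5, 3 of the 4 Jrt;Sost-ko mice exceeded all Jrt;Sost-het mice and mouse 4 did not. The log2 fold change was 0.72 (SE 0.236, unadjusted p = 0.0135, edgeR adjusted p = 0.901), and 0.82 against WT (SE 0.348, edgeR adjusted p = 0.9996). Runx1 and Runx3, Runt factors of blood cells, had log2 fold changes of 0.09 and 0.23 between the Jrt groups, Mef2a and Mef2d of -0.02 and -0.11, Msx1 of -0.25, and the low Dlx4 and Irx2 of -0.08 and -0.10. Irx4, named after its values were seen, was above 0 in WT mice 3 and 4 only, at 0.0449 and 0.333 CPM.

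Transcripts on the opposite strand share bases with 3 of the factors, and since the counting by strand is not given in the sources used here, reads of the shared bases cannot be told apart. The exons of Runx2 share 519 bases with Runx2os1, those of Irx3 share 124 with Irx3os, and those of Dlx6 share 104 with Dlx6os2. Stretches of 100 bases that recur in other transcripts, on either strand, made up 4.53% of Runx2 and 0.905% of Irx3, and 0% of the other 7 genes. These shares include the antisense overlaps. For Irx3 the only other gene was Irx3os, and for Runx2 they were Runx2os1, 2900045O20Rik and Gcm1. Counts of the antisense genes were low, with 43 to 86 for Runx2os1 and 23 to 84 for Irx3os beside 1476 to 2780 for Runx2 and 197 to 634 for Irx3. None of the 4 tested antisense transcripts passed the correction. Runx2os2 had a log2 fold change of -0.73 in Jrt;Sost-ko against WT (SE 0.279, unadjusted p = 0.0302) and -0.79 against Jrt;Sost-het (SE 0.373, unadjusted p = 0.0642), each with an edgeR adjusted p above 0.9. Dlx6os1 and Irx3os had log2 fold changes of 0.19 and 0.21 between the Jrt groups, and Runx2os1 of -0.06.

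Dlx3 lies 167077 bases from Col1a1, the gene with the Jrt allele, and 6837162 bases from Sost. Between Col1a1 and Dlx3 the annotation has 8 genes, Gm24877, Sgca, Hils1, Ppp1r9b, Samd14, Pdk2, Gm11513 and Itga3, of which 5 were tested. None had an unadjusted p under 0.05 in any comparison. Ppp1r9b and Samd14 had log2 fold changes of -0.08 and -0.14 in Jrt;Sost-het against WT, and Itga3 of -0.01. Sgca, a gene of the dystrophin complex in muscle, and Pdk2 had -0.62 and -0.64 between the Jrt groups.

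Of 36 partners and other bone transcription factors, such as Cbfb, Atf4, Twist1 and the AP-1 genes, 35 were tested and 0 passed the correction in each comparison. Between the Jrt groups, 19 of 35 log2 fold changes were positive with a median of 0.04. The smallest p was that of Snai2, a repressor of the epithelial state that is also active in osteoblasts, with a log2 fold change of 0.26 (SE 0.110, unadjusted p = 0.0403, edgeR adjusted p = 0.901). Against WT, 25 of 35 were positive in Jrt;Sost-ko (median 0.17) and 28 of 35 in Jrt;Sost-het (median 0.12). Over all tested genes, 50.4% were positive between the Jrt groups, 49.1% in Jrt;Sost-ko against WT and 51.3% in Jrt;Sost-het against WT. The counts against WT include WT mice 1 and 2, which were low in osteoblast markers. Genes of a list are not separate observations. In Jrt;Sost-ko against WT, Hdac7 (0.17), Pparg (0.30), the factor of adipocyte differentiation, and Tcf7 (0.34), a nuclear effector of Wnt signalling, had an unadjusted p under 0.05 and an edgeR adjusted p of 0.9996.

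Of 16 genes known as targets of Runx2, Sp7, Dlx factors or Mef2c, Sost itself was lower in Jrt;Sost-ko, and 0 others passed the correction. This list shares genes with the osteoblast markers. Without Sost and Col1a1, 10 of 14 targets were positive between the Jrt groups with a median log2 fold change of 0.25, 12 of 14 in Jrt;Sost-het against WT (0.11) and 11 of 14 in Jrt;Sost-ko against WT (0.36). Over all tested genes 50.4%, 51.3% and 49.1% were positive, in the same order. The same limits hold for these counts as for those of the partners. Bglap, which encodes osteocalcin and carries Runx2 sites in its promoter, was at 664, 761, 852 and 721 CPM in Jrt;Sost-ko and at 499, 626, 480 and 579 CPM in Jrt;Sost-het. These groups did not overlap, with a log2 fold change of 0.46 (SE 0.113, unadjusted p = 0.00288, edgeR adjusted p = 0.901). Bglap and its neighbour Bglap2 (0.35, SE 0.0981) are near-identical copies whose reads may be split between them.

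Mepe, a matrix protein of osteocytes, was at 157, 152, 101 and 80.9 CPM in Jrt;Sost-ko and at 89.7, 67.2, 74.4 and 70.7 CPM in Jrt;Sost-het, with mouse 4 of Jrt;Sost-ko again inside the Jrt;Sost-het range. Its log2 fold change was 0.70 (SE 0.209, unadjusted p = 0.00852, edgeR adjusted p = 0.901). The osteocyte markers did not share this direction. Of 10, Sost among them, 6 were positive and 4 negative between the Jrt groups (median 0.07). Fbln7 of that list, named after its values were seen, was at -0.97 (SE 0.265, unadjusted p = 0.00542, edgeR adjusted p = 0.901). Tnfrsf11b, which encodes osteoprotegerin, had 0.57 (SE 0.214, unadjusted p = 0.0269, edgeR adjusted p = 0.901). The log2 fold changes of Bglap, Bglap2 and Mepe against WT were 0.73, 0.63 and 0.76, none past the correction. Jrt;Sost-ko mouse 4 was thus the lowest of its group for Runx2, Sp7, Dlx5, Mef2c, Irx3, Irx5, Irx6 and Mepe, and it also had the fewest muscle transcripts of the 12 libraries.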

How the data were processed

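Tibia shafts were flushed of marrow, and poly(A) RNA was sequenced. Per the labels and methods, the authors used STAR and GRCm38 to align the reads, and the submitters' processing notes further name bcl2fastq 2.20, Cufflinks, Cuffdiff and DESeq. The deposited values used here are raw counts per gene. The counter, its strand setting and the annotation release are not given in the sources used here. Fold changes and p-values of the authors' comparison tables, and the 96 per-mouse columns beside them, were not used. Replicates are separate mice.

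Fits were made per pair of groups, with 8 mice each, in edgeR 4.0.16 (filterByExpr, TMM, quasi-likelihood test), with Benjamini-Hochberg adjustment over all 16739 to 17155 genes tested and a threshold of 0.05. CPM are TMM-scaled over the 12 libraries, and log2 CPM use a prior count of 2. GENCODE M21 gave lengths, positions and overlaps for 46574 of the 47069 identifiers. Exact permutation tests used the 70 arrangements of 4 against 4 mice. The edgeR fit was checked on simulated counts, and the permutation test on random normal draws. Alternatives used DESeq2 1.42.0, limma 3.58.1, other scalings and filters, and fewer mice. The genes, lists and motifs were chosen with earlier results of these data known. Named genes were all 9 factors, tested paralogs and antisense transcripts, Sost, Col1a1, genes between Col1a1 and Dlx3, listed partners and targets with an adjusted p under 0.05 or up to 4 with the smallest unadjusted p under 0.05, the 2 most abundant genes of each marker list, and the 3 most alike genes per factor, of which some are not reported here.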

Additional observations from a re-analysis of the deposited data

Results flagged for a closer look

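In Jrt;Sost-het, mouse 2 was far above the other 3 mice for Dlx6 (9.64 against 8.04 to 8.26 CPM), a gap that took up 0.864 of the range of the group. In Jrt;Sost-ko, mouse 4 was far below the others for Irx3 (10.2 against 13.6 to 14.2 CPM), with a gap of 0.842 of the range. Both exceed Dixon's 95% critical value for 4 samples. The check was made for 27 combinations of gene and group, and chance gives about 1 in 20.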

How the results depend on the processing

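With 4 mice a group, and with Msx2 at 4 to 20 counts, small differences in these factors are beyond the reach of the data. Under each of 16 alternatives for the comparison of the Jrt groups and 17 for each comparison with WT, 0 factors were called, and the smallest adjusted p of any factor was 0.114. Over all genes, the Jrt groups gave 15 calls with DESeq2, 0 with limma-voom and 0 to 3 when 1 mouse was left out (0 when Jrt;Sost-ko mouse 1, 3 or 4 was omitted, 2 for Jrt;Sost-het mouse 2 and 3 for Jrt;Sost-het mouse 3). Jrt;Sost-ko against WT gave 14 with DESeq2, 2 with limma-voom, 2 with no filter and 0 to 2 when 1 mouse was left out (0 for Jrt;Sost-ko mouse 1, 3 or 4 and for WT mouse 1 or 3, 2 for WT mouse 4). Jrt;Sost-het against WT gave 0 under every alternative run. Of 400 values of single factors under alternatives, 377 kept their direction and 23 changed sign. With limma-voom, Mef2c became 0.048 between the Jrt groups, and Irx5 became 0.12 in Jrt;Sost-het against WT. Without WT mice 3 and 4, Irx3 and Irx5 became 0.37 and 0.47 in Jrt;Sost-het against WT. With 1 mouse left out, the log2 fold change ranged between the Jrt groups from -0.068 to 0.14 for Dlx5, -0.13 to 0.065 for Mef2c and 0.33 to 0.55 for Irx5, in Jrt;Sost-het against WT from -0.13 to 0.25 for Dlx3, -0.32 to 0.13 for Irx3, -0.20 to 0.29 for Irx5 and -0.049 to 0.35 for Mef2c, and in Jrt;Sost-ko against WT from -0.034 to 0.42 for Irx3 and -0.11 to 0.30 for Mef2c. The cause was not tested. No paired analysis was possible because the labels give no number shared between groups.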
